A study of Mus musculus with 63 samples.

Results

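The genes described are 10 components of MHC class I antigen presentation, taken as the rows of the deposited count table named B2M, H2-K1, H2-D1, TAP1, TAP2, TAPBP, PSMB8, PSMB9, PSMB10 and NLRC5. They are 10 of 20306 genes in the table, and they were followed through all 9 groups (63 libraries). The data are bulk RNA sequencing of mouse pancreatic β cells sorted as mCherry-positive cells from dissociated islets. Every library carries the Cherry/+ reporter and Ins2-Cre, a Cre recombinase driven by insulin gene sequences, so a sorted cell is one in which Ins2-Cre has been active.

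The ICR groups were E18.5 embryos (4 libraries), P1 (3), P7 (3) and P10 (5) neonates, and Adult animals of 84 to 364 days (21 libraries, blood glucose 103 to 190 mg/dL). The NOD-ICR groups, called T1ND (non-diabetic, 7 libraries, 82 to 212 days, 108 to 245 mg/dL) and T1D (diabetic, 4 libraries, 98 to 150 days, 311 to 358 mg/dL and 1 above 600), are the model of autoimmune diabetes. The T2H group is BTBR with Ob/+ (9 libraries, 53 to 179 days, 103 to 271 mg/dL), so these controls carry 1 Ob allele. The T2D group is labelled BTBR/mix with Ob/Ob (7 libraries, 58 to 78 days, 408 to 534 mg/dL and 5 above 600). In T2H and in T2D, 2 libraries each carry 2 copies of Ins2-Cre. The labels give an animal number for each library but do not say whether animals were pooled, and the same number stands in the names of 2 P7 and of 2 P10 libraries, so p-values measure the spread between these libraries.

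Class I molecules show fragments of a cell's own proteins at its surface, where CD8 T cells read them. Proteasomes cut the proteins, the Tap1/Tap2 transporter carries the peptides into the endoplasmic reticulum, tapasin (Tapbp) holds the transporter beside an empty class I heavy chain, and the loaded heavy chain leaves with β2-microglobulin (B2m). Interferon replaces the 3 catalytic proteasome subunits by Psmb8, Psmb9 and Psmb10, which makes the immunoproteasome, and Nlrc5 is the transactivator of class I genes. In NOD mice, β cells are destroyed by T cells that recognise peptides presented in this way.

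Of the 10 genes, 7 lie in the MHC on chromosome 17 (positions from RefSeq, build GRCm38.p6, the same assembly as the mm10 build named in the submitters' processing notes). Psmb9 (chr17:34182030-34187330), Tap1 (chr17:34187556-34197225), Psmb8 (chr17:34198195-34201454) and Tap2 (chr17:34204479-34216321) are neighbours within the class II part of the MHC. Tapbp (chr17:33919478-33929290) and H2-K1 (chr17:33996012-34000619) lie on one side of that cluster and H2-D1 (chr17:35263094-35267497) on the other. B2m (chr2:122147687-122153082), Psmb10 (chr8:105935728-105938392) and Nlrc5 (chr8:94434335-94527272) lie outside the MHC.

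The upstream sequences of 4 of these genes are shown because the genes moved together in the NOD-ICR libraries and because they hold the letters of the elements that class I promoters are known for. RefSeq's promoter table matched 8 of the 10 genes, all but Tap2 and Nlrc5, and the 250 bases before each start in that table were searched on both strands for 5 motifs. For H2-K1 the table's first entry starts at position 34000347, which is 272 bases inside the gene span given above, so its stretch lies within that span, and for the other 7 genes the start is the end of the span. These were the κB core GGGNNTTCC (in 4.88% of 27025 promoters of that length), the interferon regulatory factor core AANNGAAA (21.6%), the gamma-activated site TTCNNNGAA (7.18%), TGACG, the core of the X2 box (17.9%), and CCAAT, the core of the Y box (34.5%). Capitals mark the matches, a match on the other strand appears as its reverse complement, and no 2 matches overlap in these stretches:
H2-K1: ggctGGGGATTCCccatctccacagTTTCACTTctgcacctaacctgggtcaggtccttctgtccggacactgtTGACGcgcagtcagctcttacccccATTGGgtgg
H2-D1: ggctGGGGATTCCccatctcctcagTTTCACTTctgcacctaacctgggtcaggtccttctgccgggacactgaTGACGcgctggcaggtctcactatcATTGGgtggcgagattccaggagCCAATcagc
B2m: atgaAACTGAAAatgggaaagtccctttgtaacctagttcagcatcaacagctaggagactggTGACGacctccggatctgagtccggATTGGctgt
Tap1: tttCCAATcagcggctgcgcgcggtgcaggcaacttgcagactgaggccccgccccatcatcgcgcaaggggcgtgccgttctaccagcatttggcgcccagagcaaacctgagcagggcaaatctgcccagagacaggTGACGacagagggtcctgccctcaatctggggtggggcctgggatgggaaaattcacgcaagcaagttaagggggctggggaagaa
The stretches are chr17:34000355-34000462 on the minus strand (H2-K1), chr17:35262919-35263049 (H2-D1), chr2:122147546-122147642 (B2m) and chr17:34187331-34187555 (Tap1), the last 3 on the plus strand. From the κB match to the first CCAAT match the H2-K1 and H2-D1 stretches could be laid on each other without a gap, and 89 of 100 bases were identical. The B2m stretch has the interferon regulatory factor core, TGACG and CCAAT in that order and no match to GGGNNTTCC. That pattern has a fixed length, and κB sites of another length were not searched for in any of the 8 genes. Whether the B2m stretch holds such a site was therefore not tested. The Tap1 stretch is the whole interval between the starts of Tap1 and Psmb9, which are transcribed away from each other, so the 2 genes share its TGACG and its CCAAT. Psmb8 held 1 gamma-activated site match at 97 to 89 bases before its start, Tapbp held 2 CCAAT matches, and Psmb10 held none of the 5. A match is a description of the letters.

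Library totals ranged from 23894167 to 73839270 expected counts (median 36444826). Levels below are CPM, the depth-normalised count unit of edgeR, computed with TMM-corrected library totals, and levels of different genes are compared only per kilobase of the longest annotated transcript. All 8 β cell markers were detected in every group, with summed levels of 117000 to 620000 CPM of the library total. The sorted cells also gave acinar transcripts (21.2 to 317000 CPM summed over 12 markers) and, in P1 2, P1 3, P7 1 and P7 2, stromal transcripts above 1% of counts. The summed level of 13 myeloid markers, none at 0 in any group, was 21.1 to 202 CPM in Adult, 87.3 to 1740 CPM in T1ND, 614 to 4280 CPM in T1D, 33.4 to 383 CPM in T2H and 159 to 1190 CPM in T2D. In bulk RNA, fewer cells of a type and less RNA per cell cannot be told apart. Genes were called at an adjusted p under 0.05 in an edgeR quasi-likelihood fit over all 63 libraries with a term for the RNA extraction method.

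In ICR adults the pathway was present at uneven levels. Per kilobase, H2-D1 was highest with a median of 210 CPM per kb, followed by H2-K1 (108), Tapbp (62.8), B2m (33.5) and Tap2 (20.5). Psmb8 (11.5), Psmb10 (11.5), Psmb9 (7.46) and Tap1 (3.62) were lower, and Nlrc5 (0.0077) was close to the limit of detection, with 6 of 21 libraries at 0. A count of 0 allowed up to 0.106 CPM of Nlrc5 in the shallowest Adult library (3 counts, counting error only). B2m, which every class I heavy chain needs at the surface, stood at a median of 0.111 of the summed H2-K1 and H2-D1 level per kb, with a range of 0.0652 to 0.248 over the 21 libraries.

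Among non-diabetic NOD-ICR β cells all 10 genes were higher than in ICR adults, by a median log2 difference of 2.95, where the median over all 16092 genes tested was -0.013 and 13.9% of them were called in either direction. The rise was 37.8-fold for B2m, between 6.04-fold and 11.7-fold for H2-D1, Tap1, Psmb8, Psmb9 and Psmb10, and 2.97-fold to 3.08-fold for Tap2, H2-K1 and Tapbp. In 6 of the 7 libraries, each of the 10 genes lay above every ICR adult, and the exception for each gene was the same library, T1ND 1, from a female of 131 days with a glucose of 128 mg/dL. Without that library all 10 genes were called, with B2m at 5.45 on the log2 scale. How often such separation from the adults held over all genes was not counted.

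B2m was 48.5 CPM in T1ND 1, 718 in T1ND 2, 844 in T1ND 3, 2610 in T1ND 4, 1810 in T1ND 5, 1150 in T1ND 6 and 1810 in T1ND 7, against 19.2, 28.8 and 72.2 CPM as the lowest, median and highest of the 21 adults. The first library lies within the adult range and the other 6 lie far above it. The log2 difference was 5.24 ± 0.35 (SE, adjusted p = 4.22e-18). Median B2m per kb went from 33.5 to 1340 CPM per kb, and its ratio to the 2 heavy chains from 0.111 to 0.851.

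H2-D1, a classical heavy chain, was 365, 1630, 1460, 4000, 4210, 3570 and 3800 CPM in T1ND 1 to T1ND 7, against 145, 442 and 855 CPM in the adults. T1ND 2 and T1ND 3 were intermediate and the remaining 4 were close to each other. In the fit this was a log2 difference of 2.60 ± 0.25 (adjusted p = 1.78e-12).
H2-K1, the other classical heavy chain measured, was 34.5, 336, 287.3, 863, 825, 828 and 758.3 CPM in the same order, against 131, 174 and 252 CPM in the adults. T1ND 1 was thus below every adult for this gene, while the other 6 were above every adult. The fitted log2 difference was 1.59 ± 0.21 (adjusted p = 1.94e-08), and 1.80 without T1ND 1.

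The ratio of H2-K1 to H2-D1 per kb had a median of 0.529 (0.297 to 1.49) in Adult, 0.259 (0.123 to 0.301) in T1ND and 0.256 (0.243 to 0.257) in T1D. Within Adult the spread came with H2-D1: Adult 10, Adult 2, Adult 8 and Adult 11 had 145, 148, 158 and 193 CPM of H2-D1, and the next lowest, Adult 20, had 319 CPM. These genes differ between mouse strains and share sequence with other class I genes: 8.79% of the 50-base windows of the H2-K1 transcript and 14.3% of those of H2-D1 occur in another annotated gene, chiefly H2-Q1, H2-Q6, H2-Q7 and each other. The labels give no H2 haplotype, and alignment was to a single mouse assembly, so the part of haplotype in H2-K1 and H2-D1 differences between strains was not tested. The 2 genes were also summed with the H2-Q, H2-T and H2-M genes of a list of 14 other class I heavy chain genes, which leaves out its Mr1 and Cd1d1. The sum gave a log2 difference of 2.34 ± 0.19 between T1ND and Adult (adjusted p = 3.72e-15).

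**Figure D1:**
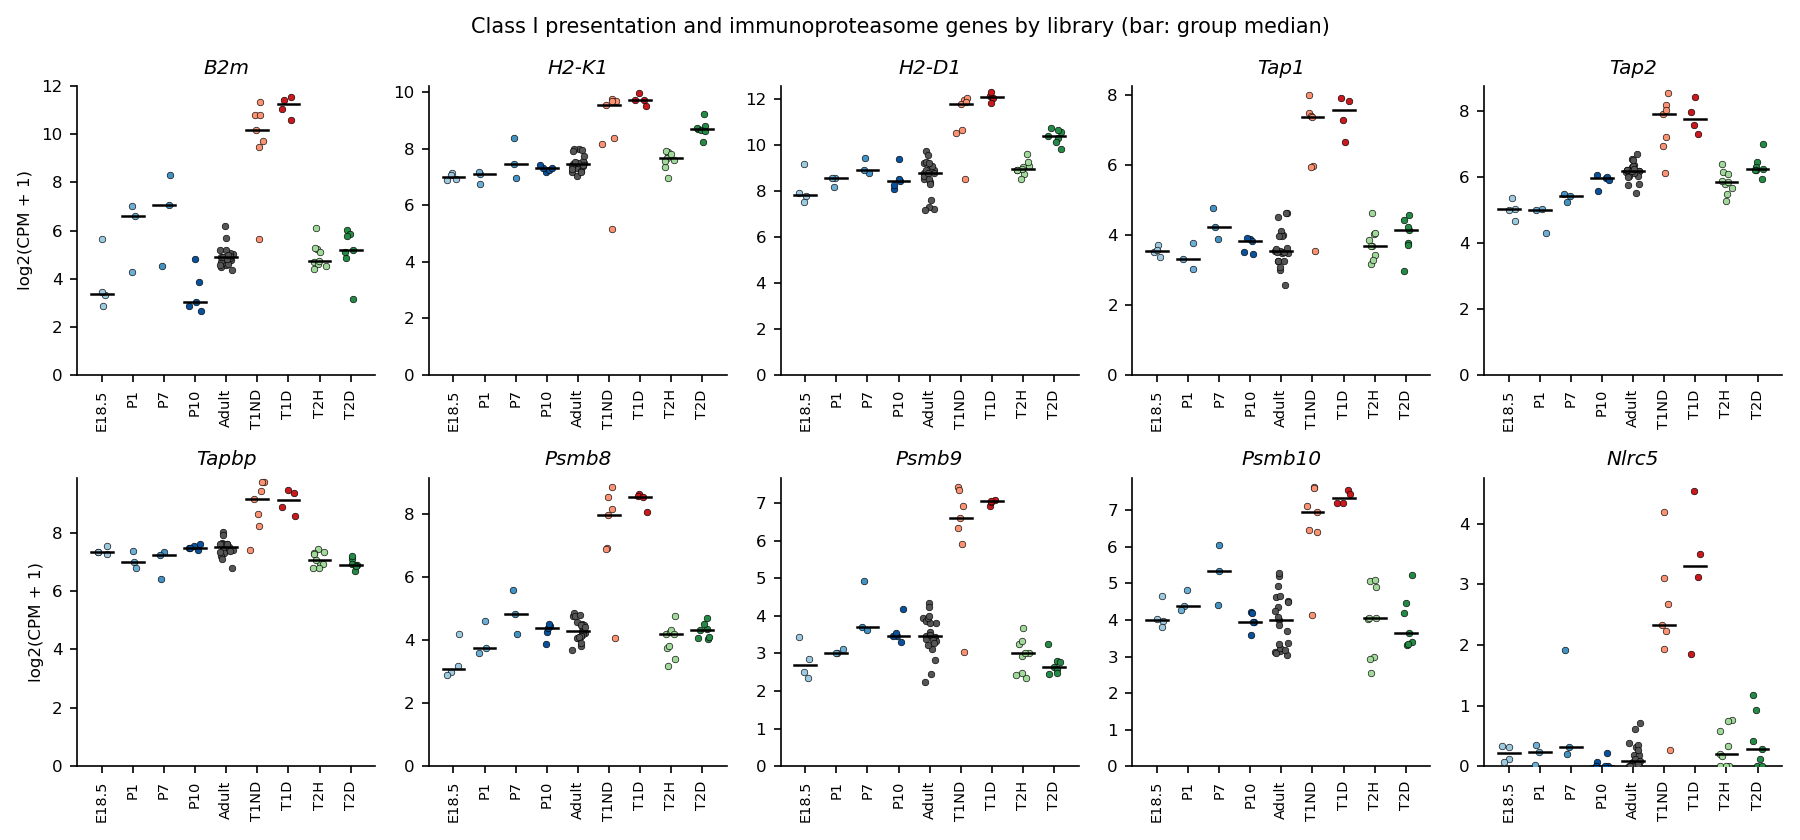
Level of each gene as log2(CPM + 1) on the vertical axis in each of 63 libraries (points), by group on the horizontal axis, with the group median as a bar. All 10 genes are highest in T1ND and T1D, with T1ND 1 apart from the other 6 T1ND libraries, and H2-K1 and H2-D1 are also higher in T2D than in T2H.

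**Figure D2:**
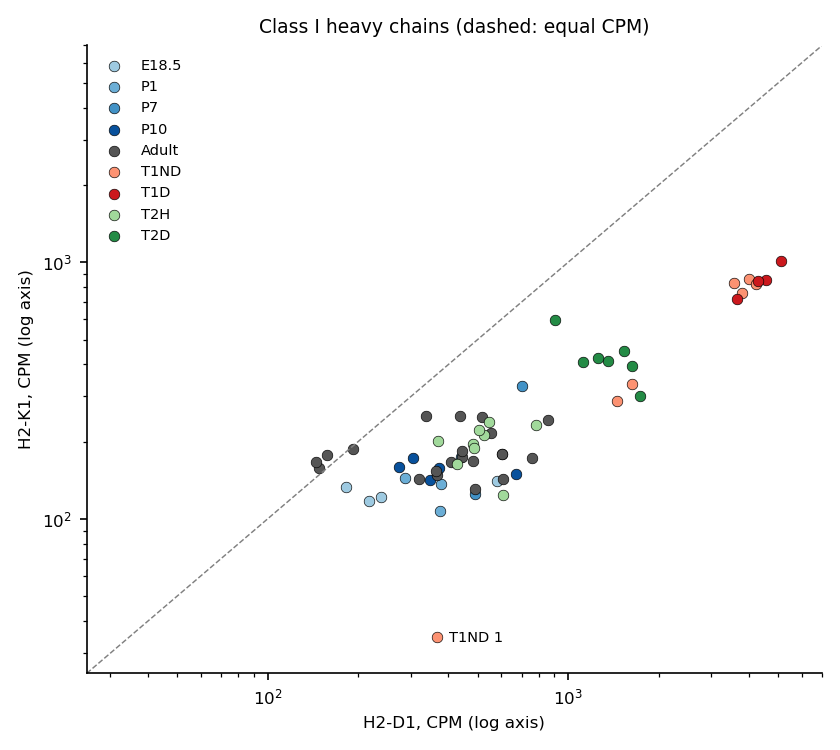
H2-K1 against H2-D1 in CPM, both on log axes, 1 point per library, with equal CPM as a dashed line. T1ND 1 (365 CPM of H2-D1, 34.5 CPM of H2-K1) lies below all the other libraries, and 4 Adult libraries lie to the left of the other 17 Adult libraries at 145 to 193 CPM of H2-D1, near E18.5 4 at 182 CPM.

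For the transporter, Tap1 was 10.5, 61.3, 60.6, 177, 167, 164 and 252 CPM in T1ND 1 to T1ND 7, against 4.86, 10.7 and 23.5 CPM in Adult. All but the first library exceed the highest adult. This gave a log2 difference of 3.43 ± 0.25 (adjusted p = 1.33e-16). Its partner Tap2 was 68.1, 146, 120, 284, 237, 257 and 369 CPM, against 44.4, 70.5 and 101 CPM in Adult, a log2 difference of 1.57 ± 0.16 (adjusted p = 1.22e-11). The 2 subunits form a single heterodimer, and the median Tap1 to Tap2 ratio per kb was 0.180 in Adult, 0.724 in T1ND and 0.877 in T1D. Tapbp was 169 to 848 CPM in T1ND (median 576.7) and 110 to 261 CPM in Adult, a log2 difference of 1.62 ± 0.15 (adjusted p = 3.36e-13).

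The 3 inducible proteasome subunits rose while the subunits they replace did not pass the test. Psmb8 was 15.9, 120, 119, 369, 284, 464 and 249 CPM in T1ND 1 to T1ND 7, against 11.8, 18.6 and 27.8 CPM in Adult, a log2 difference of 3.55 ± 0.24 (adjusted p = 1.87e-18). Psmb9 was 7.26 CPM in T1ND 1 and 59.1 to 170 CPM in the other 6, against 3.72 to 19.4 CPM in Adult (log2 difference 3.14 ± 0.24, adjusted p = 5.21e-16). Psmb10 was 16.6 CPM in T1ND 1 and 83.9 to 199 CPM in the other 6, against 7.25 to 38 CPM in Adult (log2 difference 2.76 ± 0.29, adjusted p = 6.79e-11). Of the 3 constitutive catalytic subunits 0 were called, and their median log2 difference was 0.06. Psmb8 per kb therefore went from a median of 0.117 of Psmb5 in Adult to 1.22 in T1ND and 1.42 in T1D. Psmb9 went from 0.0532 of Psmb6 to 0.372 and 0.370, and Psmb10 from 0.293 of Psmb7 to 2.63 and 2.76.

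**Figure D3:**
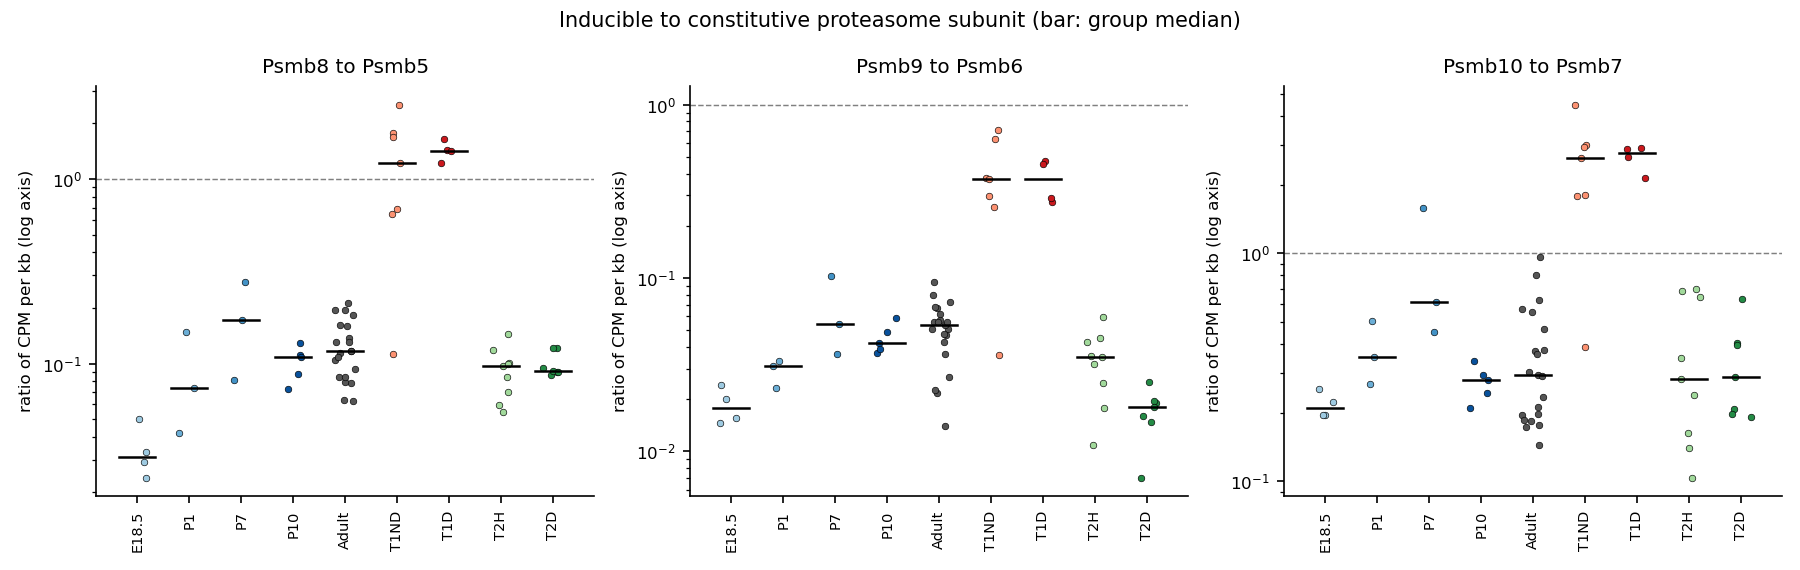
Ratio of each inducible proteasome subunit to the constitutive subunit it replaces, from CPM per kb on a log axis, by group, 1 point per library with the group median as a bar and a ratio of 1 dashed. The T1ND and T1D medians for Psmb8 to Psmb5 (1.22 and 1.42) and Psmb10 to Psmb7 (2.63 and 2.76) lie above 1, and every other group median lies below it.

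Nlrc5 was 0.206, 5.41, 4.0, 2.82, 3.67, 7.58 and 17.4 CPM in T1ND 1 to T1ND 7, and at most 0.63 CPM in any adult. The log2 difference was 5.41 ± 0.77 (adjusted p = 1.96e-07). With 6 of 21 adults at 0 its size rests partly on how the fit treats counts of 0.

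The rest of the pathway was read from lists of related genes. Of 14 other class I heavy chain genes, 9 were higher and 0 lower in T1ND than in Adult (median log2 difference 1.87), led by H2-Q2 (2.48 ± 0.18), H2-Q7 (4.15 ± 0.30) and H2-Q6 (3.78 ± 0.28). H2-Q7 and H2-Q6 are among the genes that share most sequence with H2-D1. Of 5 genes of peptide loading, 2 were higher, Tapbpl (1.18 ± 0.14), a tapasin relative, and Erap1 (1.49 ± 0.20), which trims peptides in the endoplasmic reticulum. Of 4 proteasome activator and assembly genes, 3 were higher: Psme1 (1.41 ± 0.13) and Psme2 (1.59 ± 0.16), the 2 subunits of the interferon-inducible activator, and Pomp (0.71 ± 0.16), the assembly factor. Of the 11 other subunits of the core particle, 1 was higher, Psma5 (0.49 ± 0.13). Of 12 regulators of class I genes, 2 were higher, Irf1 (2.76 ± 0.18) and Irf2 (0.65 ± 0.13), and 1 was lower, Nfkb1 (-0.54 ± 0.15). Of 24 interferon response genes, 23 were higher (median 4.19), and of 11 interferon signalling genes 7 were.

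Genes of other cell types moved in the same libraries. All 8 class II presentation genes, which belong to professional antigen-presenting cells and can be induced elsewhere, were higher (median log2 difference 4.24), as were 12 of 13 myeloid markers (3.31), 5 of 10 tested T and NK cell markers (2.47), 2 of 5 tested B cell markers (1.91) and 2 of 3 delta and PP cell markers (1.17). Of 6 duct and 7 endothelial markers 1 each was higher, and 0 of the beta, alpha, acinar and stromal markers were called. With the T and NK cell marker sum as a term in the fit all 10 genes were still called. The part of the B cell, delta and PP cell, duct and endothelial markers in the class I result was not tested. T1ND 1 and T1ND 2 had nearly the same summed myeloid level, 88.0 and 87.3 CPM, both within the Adult range, and B2m was 48.5 CPM in the first and 718 in the second. The myeloid sum had a T1ND median of 1270 CPM and was highest in T1ND 7, at 1740 CPM. The summed interferon response was 95.8 CPM in T1ND 1, within the Adult range of 42.7 to 185 CPM, and 708 to 4370 CPM in the other 6. With the myeloid sum as a term in the fit all 10 genes were still called, with B2m at 3.73 ± 0.35, Psmb8 at 2.66 ± 0.28, Tap1 at 2.72 ± 0.33 and H2-K1 at 0.87 ± 0.25 (adjusted p = 0.0344). The T and NK cell marker sum was 1.74 CPM in T1ND 1 and 5.09 to 20.1 CPM in the other T1ND libraries, against 1.26 to 8.68 CPM in Adult. All T1ND libraries were extracted with Qiagen columns, and against the 17 Qiagen adults alone all 10 genes were called, with B2m at 5.26 ± 0.38.

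**Figure D4:**
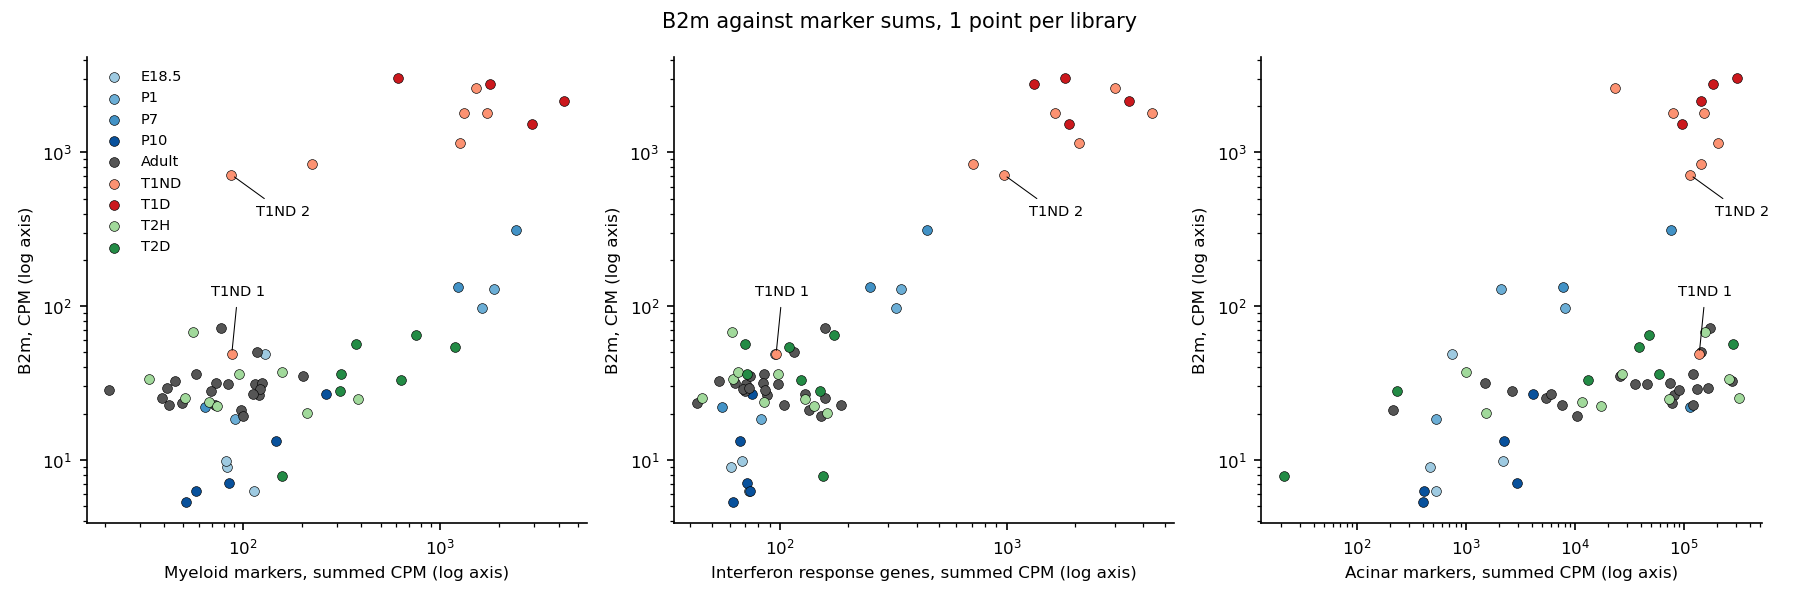
B2m in CPM against the summed CPM of myeloid markers (left), interferon response genes (middle) and acinar markers (right), all on log axes, 1 point per library coloured by group. T1ND 1 and T1ND 2 have nearly the same myeloid level (88.0 and 87.3 CPM) and B2m of 48.5 and 718 CPM.

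Diabetic and non-diabetic NOD-ICR libraries were compared next. None of the 10 genes was called in edgeR, all 10 point estimates were positive (median log2 difference 0.62), 2 had an unadjusted p under 0.05, and 1.28% of all genes were called. DESeq2 also called 0. B2m was 2160, 1530, 3040 and 2780 CPM in T1D 1 to T1D 4, all above the T1ND median of 1150 CPM and overlapping T1ND 4, T1ND 5 and T1ND 7. Its log2 difference was 1.09 ± 0.52 (adjusted p = 0.283). H2-K1 was 852, 845, 1010 and 721.9 CPM (0.65 ± 0.31, adjusted p = 0.282) and H2-D1 4550, 4280, 5120 and 3660 CPM (0.74 ± 0.38, adjusted p = 0.329). For these 3 genes the diabetic libraries lay among or above the 4 highest non-diabetic ones, apart from T1D 4 for H2-K1 (721.9 against 758.3 CPM). Psmb9 ranged only from 120 to 134 CPM in T1D and from 7.26 to 170 CPM in T1ND. Tapbp (0.01 ± 0.23) and Tap2 (0.12 ± 0.24) had the smallest differences. The lowest T1D value of B2m, 1530 CPM, was well above the 48.5 CPM of T1ND 1. Of the 11 other core particle subunits, 6 were higher in T1D and of the 3 constitutive catalytic subunits 1 was, while 0 of 24 interferon response genes were called. The count of 6 was 0 with the myeloid term, in Qiagen libraries, in the compared groups alone and with no term for extraction, and 10 in DESeq2. It was 0 without T1ND 1, T1D 2 or T1D 4, 2 to 4 without T1ND 2, T1ND 3, T1ND 7, T1D 1 or T1D 3, and 10 without T1ND 5 or T1ND 6. The myeloid markers summed to 4280, 2920, 614 and 1790 CPM in T1D 1 to T1D 4, and the library with the least of it, T1D 3, had the most B2m and H2-D1.

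BTBR Ob/+ β cells did not differ from ICR adults in any of the 10 genes by this test: 0 were called, 1 had an unadjusted p under 0.05 (Tapbp, -0.41 ± 0.17, adjusted p = 0.128), DESeq2 called 0, and 5.2% of all genes were called. B2m was 20.3, 25.3 and 67.8 CPM (lowest, median and highest of 9), H2-K1 124, 202 and 239 CPM and H2-D1 369, 504 and 782 CPM, within or overlapping the adult ranges.

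In Ob/Ob β cells 2 of the 10 genes passed the test, the heavy chains H2-K1 and H2-D1. That count is near the share over all genes, of which 18.3% were called. H2-K1 was 301, 411, 596.3, 450, 425, 409 and 395 CPM in T2D 1 to T2D 7, against 124, 202 and 239 CPM in T2H, and every T2D library lay above every T2H library. In the fit this was a log2 difference of 1.06 ± 0.26, or 2.08-fold (adjusted p = 0.0022). H2-D1 was 1740, 1360, 902, 1540, 1260, 1120 and 1630 CPM, against 369, 504 and 782 CPM in T2H, again with no overlap (how often this held over all genes was not counted). The fitted log2 difference was 1.33 ± 0.31, or 2.52-fold (adjusted p = 0.00147). Summed with the listed H2-Q, H2-T and H2-M genes as before, the log2 difference was 1.15 ± 0.24 (adjusted p = 0.000355).

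The light chain and the processing genes gave other values. B2m was 7.84, 64.8, 56.6, 53.8, 28.2, 33.3 and 35.9 CPM in T2D 1 to T2D 7 and differed by 0.02 ± 0.44 (adjusted p = 0.99). Its ratio to the 2 heavy chains had a median of 0.0864 in T2H and 0.0494 in T2D. T2D 1 had the lowest B2m and the highest H2-D1 of the group, and its acinar marker sum, 21.2 CPM, was the lowest of all libraries. Tap2 differed by 0.51 ± 0.20 (adjusted p = 0.0634 in edgeR and 0.0491 in DESeq2), Tap1 by 0.33 ± 0.32, Psmb8 by 0.25 ± 0.30, Psmb9 by -0.42 ± 0.32 and Psmb10 by -0.40 ± 0.38. Nlrc5 was at 0 in 3 of 9 T2H and in 2 of 7 T2D libraries and at most 1.26 CPM.

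Around them, 4 of 14 other class I heavy chain genes were higher and 0 lower, among them H2-M3 (1.2 ± 0.19), which presents formylated peptides, Mr1 (1.21 ± 0.31), which presents vitamin metabolites, and H2-Q10 (1.46 ± 0.40). Of 5 peptide loading genes, 2 were higher, Pdia3 (0.53 ± 0.16), a disulphide isomerase of the loading complex, and Tapbpl (0.48 ± 0.17). Of 24 interferon response genes 0 were higher and 1, Oas2, was lower (-1.71 ± 0.56), and the summed interferon response was 69.9 to 172 CPM in T2D and 45.2 to 160 CPM in T2H. Of 11 interferon signalling genes 3 were higher, among them Ifngr1 (0.61 ± 0.17) and Ifnar1 (0.57 ± 0.20), and 2 lower, among them Socs1 (-1.51 ± 0.43). Of 6 chemokine and T cell ligand genes 2 were higher, Cxcl9 (4.1 ± 0.94) and Ccl5 (2.7 ± 0.97), with T2D means of 0.949 and 0.504 CPM. Of 12 regulators of class I genes 0 were higher and 3 lower, Nfkb1 (-1.13 ± 0.18), Nfyc (-0.50 ± 0.13) and Atf1 (-0.41 ± 0.12). Of 8 beta cell markers 6 were lower (median log2 difference -1.19), among them Slc2a2 (-2.20 ± 0.27), the glucose transporter, Ucn3 (-2.03 ± 0.31), a peptide of mature β cells, and Nkx6-1 (-1.36 ± 0.22), a β cell transcription factor. Myeloid markers were higher for 4 of 13 genes and class II genes for 3 of 8, and B cell markers were lower for 2 of 5. Duct markers were higher for 1 and lower for 2 of 6, and 1 gene each was called among the acinar (lower), stromal, endothelial and T and NK cell markers (higher). The part of the β cell markers in the heavy chain result was not tested. With the myeloid sum in the fit H2-D1 was 0.90 ± 0.31 (adjusted p = 0.0473) and H2-K1 was 0.56 ± 0.26 and no longer called (adjusted p = 0.154). In that fit B2m was lower in T2D, at -1.24 ± 0.44 (adjusted p = 0.0498). Within TRIzol libraries (4 T2D, 8 T2H) the log2 differences were 0.97 ± 0.14 for H2-K1 and 1.40 ± 0.18 for H2-D1, both called. Within Qiagen libraries (3 T2D, 1 T2H) they were 1.3 ± 0.80 and 1.40 ± 0.92, with neither called (adjusted p = 0.634 and 0.656). The strain labels also differ (BTBR and BTBR/mix), so Ob/Ob and strain background cannot be told apart for these strain-variable genes.

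The change with diabetes in NOD-ICR was set against that in BTBR by a test of the difference itself. None of the 10 genes was called in edgeR (2.14% of all genes were), none had an unadjusted p under 0.05, and DESeq2 called 0. The estimates (T1D effect minus T2D effect, log2) ran from -0.60 ± 0.51 for H2-D1 to 1.07 ± 0.70 for B2m.

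**Figure D5:**
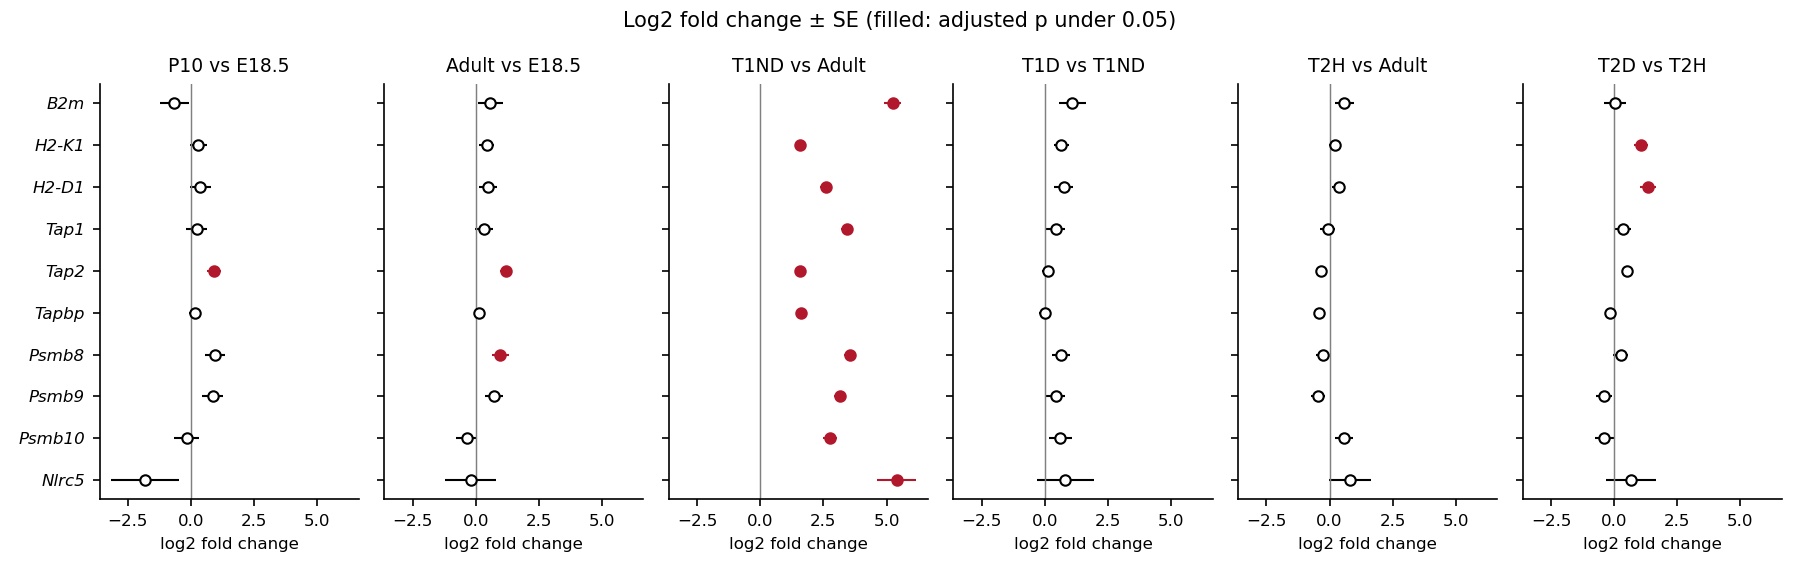
Log2 fold change with its standard error (horizontal axis) for each gene (vertical axis) in 6 comparisons, filled where the adjusted p was under 0.05. All 10 genes are called higher in T1ND than in Adult, H2-K1 and H2-D1 in T2D against T2H, Tap2 in P10 and Adult against E18.5, and Psmb8 in Adult against E18.5.

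From E18.5, 1 of the 10 genes was called to P10 and 2 were called to Adult. These counts are near and below the shares over all genes, given below. Tap2 rose in development. It was 24.2, 31.0, 31.6 and 39.6 CPM in E18.5 1 to E18.5 4, and 61.2, 46.7, 62.9, 59.0 and 65.6 CPM in P10 1 to P10 5, with no overlap (how often this held over all genes was not counted). The 21 adults had 44.4, 70.5 and 101 CPM, all above the highest fetal library. This gave a log2 difference of 0.91 ± 0.27 from E18.5 to P10 (adjusted p = 0.0287, 6.53% of all genes called) and 1.19 ± 0.24 from E18.5 to Adult (adjusted p = 0.000104, 34.8% of all genes called). The P10 call was lost without any one of 6 of the 9 libraries, with the difference then between 0.79 and 1.02, whereas the Adult call was kept without any single library. Between E18.5 and Adult, 12 of 12 acinar markers were higher (median log2 difference 6.12, summed level 465 to 2180 CPM in E18.5 and 212 to 274000 CPM in Adult) and 6 of 9 stromal markers lower (-3.67, 80.3 to 301 CPM and 1.61 to 48.5 CPM), with 3 of 10 T and NK cell markers lower and 0 of 13 myeloid markers called. None of the acinar or stromal markers was at 0 throughout either group. With the acinar sum as a term in the fit, Tap2 was 1.34 ± 0.25 and Psmb8, described next, 1.07 ± 0.38 higher in Adult, both called. The part of the stromal markers was not tested.

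Psmb8 was 17.5, 6.97, 8.07 and 6.36 CPM in E18.5 1 to E18.5 4, and 11.8, 18.6 and 27.8 CPM in Adult, a log2 difference of 0.98 ± 0.35 (adjusted p = 0.0241). The first fetal library, the only one extracted with a Qiagen column, lay inside the adult range and the other 3 below it. The call rested on those 3: without E18.5 2, E18.5 3 or E18.5 4 it was lost, and the difference was 1.68 ± 0.31 within TRIzol libraries (adjusted p = 0.000362) and 0.09 ± 0.68 within Qiagen libraries. Within TRIzol libraries 5 of the 10 genes were higher in Adult than in E18.5, where 19.4% of all genes were called in that fit. The others were B2m (1.44 ± 0.45), H2-D1 (1.2 ± 0.24), Tap2 (0.87 ± 0.24) and Psmb9 (1.11 ± 0.29). The TRIzol adults were Adult 12, Adult 13, Adult 19 and Adult 20, all female and mostly among the oldest. This subset therefore differs from the Qiagen adults in sex and age as well as in extraction. All 3 constitutive catalytic subunits and all 11 other core particle subunits were lower in Adult than in E18.5 (medians -0.85 and -0.78), and the Psmb8 to Psmb5 ratio per kb went from a median of 0.0312 to 0.117.

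Around birth B2m moved with the stromal and myeloid content of the libraries. It was 49, 8.94, 6.23 and 9.87 CPM in E18.5 1 to E18.5 4, 18.4, 96.5 and 130 CPM in P1 1 to P1 3, 134, 313 and 22.1 CPM in P7 1 to P7 3, and 13.3, 26.8, 7.09, 5.30 and 6.30 CPM in P10 1 to P10 5. The 4 high values belong to P1 2, P1 3, P7 1 and P7 2, the libraries with 1.27%, 2.33%, 2.43% and 1.3% of counts in the 9 stromal markers and 1630, 1870, 1240 and 2440 CPM in the myeloid markers. In the other 2 libraries, P1 1 and P7 3, the stromal markers took 0.0576% and 0.0284% of counts and the myeloid markers 91.4 and 64.1 CPM.

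B2m was called higher in P1 than in E18.5 (2.53 ± 0.67, adjusted p = 0.0102, 12% of all genes called) and lower in P10 than in P7 (-3.70 ± 0.63, adjusted p = 2.52e-05, 29.4% of all genes called). Without those 4 libraries only P1 1 and P7 3 were left in their groups. The differences were then -0.38 ± 0.85 and -0.59 ± 0.78. With a single library in a group, that fit cannot decide whether the calls depend on the libraries left out. The P1 call was lost without E18.5 3 or P1 3. Nlrc5 was called lower in P10 than in P7 (-4.55 ± 1.43, adjusted p = 0.0136), with 0.153, 2.76 and 0.249 CPM in P7 1 to P7 3 and 3 of 5 P10 libraries at 0, where a count of 0 allowed up to 0.0908 CPM. Without P7 2 this call was lost, at a difference of -2.14. None of the 10 genes was called between P7 and P1 in edgeR (2 had an unadjusted p under 0.05, DESeq2 called 0, and 0.106% of all genes were called).

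Between P10 and Adult no gene of the 10 was called in edgeR (1 had an unadjusted p under 0.05, and 18.8% of all genes were called). B2m was next to the threshold at 1.25 ± 0.47 (adjusted p = 0.0501), and it was called by DESeq2, under 6 of the 11 other settings, and without P10 2, Adult 8 or Adult 11. The other 9 genes were within 0.28 log2 units of 0, apart from Nlrc5 (1.62 ± 1.11). Tapbp stayed between 85.0 and 261 CPM in all ICR libraries, and it differed by 0.14 ± 0.21 between Adult and E18.5.

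Within the 21 adults, age (84 to 364 days) and sex (11 female, 10 male) were fitted together with the extraction term over 11826 genes, which left out Nlrc5. The oldest adults (Adult 12, Adult 13, Adult 15 and Adult 19) were all female, as were all 4 TRIzol adults. Age, sex and extraction are therefore only partly separable. With age 0 of 9 genes were called in edgeR, against 0.093% of all genes, and 3 had an unadjusted p under 0.05. Tap1 had the steepest slope at 0.46 ± 0.13 log2 units per 100 days (adjusted p = 0.121), followed by H2-D1 (0.39 ± 0.20) and B2m (0.25 ± 0.10). Tap1 was called by DESeq2 with an adjusted p of 0.0275. In edgeR on Qiagen libraries alone its slope was 0.36 ± 0.13 (adjusted p = 0.168). Between females and males 0 of 9 were called in edgeR, against 4.34% of all genes, 5 had an unadjusted p under 0.05, and DESeq2 called 0. The largest of these was Psmb9, 0.67 ± 0.23 higher in females (adjusted p = 0.0883).

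The 2 NOD-ICR groups held the first 2 places for every gene, and the order below them differed between genes. T1D had the highest median and T1ND the next for B2m, H2-K1, H2-D1, Tap1, Psmb8, Psmb9, Psmb10 and Nlrc5, and the 2 were in the opposite order, with overlapping ranges, for Tap2 and Tapbp. For H2-K1 and H2-D1 the T2D group came next, apart from T2H. The other neighbours in these orders had overlapping ranges, except T1D and the group after it for Tap2 (T2D) and Tapbp (Adult), and P10 and the group after it for Psmb9 (P1).

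Across all 63 libraries the genes whose log2 CPM was most like the average of the 10 included Igtp (Pearson r = 0.976), Irgm1 (0.971), Ubd (0.943), Irgm2 (0.943) and Il18bp (0.941). These correlations include the contrast between NOD-ICR and the other libraries, and libraries share groups, depth and cell content. Among the 10 genes the closest pair was Psmb8 and Psmb9 (r = 0.946), followed by Tap1 and Psmb8 (0.924). Over the 21 adults alone the same 10 genes were loosely related: the closest pair was again Psmb8 and Psmb9 (0.743), then Tap2 and Tapbp (0.607), and for H2-K1 no other member exceeded 0.219. The genes most like the average in adults were Ikzf4 (0.813) and Map7d2 (0.768), and none of the 5 named over all libraries was among the first 6 there. Over the 15 fetal and neonatal libraries Il18bp came first (0.878), and none of the others named over all libraries was among the first 6.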

How the data were processed

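The values used are the authors' deposited expected counts per gene, made per the submitters' processing notes with bcl2fastq 2.20.0.422, Bowtie 1.2.2 and RSEM 1.3.0 on mm10. The annotation is not given in the sources used here. RSEM shares reads between similar genes, so 48.5% of the values had decimals; all were rounded before the fit. Libraries came from low-input full-length cDNA, per the labels' protocols. The second deposited table was not used.

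Genes were kept with filterByExpr, scaled by TMM and tested in edgeR 4.0.16 (R 4.3.3) by a two-sided quasi-likelihood test with robust priors. A single fit held 9 group means and an extraction term over 63 libraries, with Benjamini-Hochberg adjustment over 16092 genes. Standard errors came from the F statistic. The code was tested on simulated data. List sums are CPM of the library total.

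All 10 genes are named in each comparison. The share of all genes whose values do not overlap between groups was not counted. In lists, up to 3 called genes of smallest adjusted p are named, or 2 of smallest p where none was called; several lists are given by counts. A gene that these rules would name is not reported here. The 10 genes and the lists were chosen with earlier results of these data known. Transcript lengths are from GENCODE vM21. H2-T10, Mx1, Cxcl11 and Trac were not matched to a row.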

Additional observations from a re-analysis of the deposited data

Results flagged for a closer look

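In 60 groups of 4 to 10 libraries (10 genes in 6 groups), 8 held a library whose gap to its nearest neighbour was too large a share of the group's range by Dixon's test, of which about 1 in 20 groups would be flagged by chance. T1ND 1 accounted for 6, all low: B2m at 48.5 CPM, H2-K1 at 34.5 CPM, Psmb8 at 15.9 CPM, Psmb9 at 7.26 CPM, Psmb10 at 16.6 CPM and Nlrc5 at 0.206 CPM. The other 2 were B2m in T2D 1, low at 7.84 CPM, and Psmb9 in P10 2, high at 17 CPM.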

How the results depend on the processing

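For T1ND against Adult all 10 genes were called higher under each of 11 alternatives and without each library. For T1D against T1ND, T2H against Adult, P7 against P1, the difference of the diabetes effects and sex, 0 were called throughout. For P1 against E18.5 (1938 of all genes called) the count of 1 became 0 with the myeloid term (197 of all genes called), with the T and NK term (665) and in the compared groups alone (1582). It became 2 in TRIzol libraries (2350). B2m was -1.40 in Qiagen libraries (1 P1, 1 E18.5) and -0.38 without the 4 stromal libraries, where only P1 1 is left of P1. Those 2 fits are too small for a count. Leaving out a library gave 0 to 1 (299 to 3281 of all genes called). For P10 against P7 (4731 of all genes called) the count of 2 became 0 in Qiagen libraries (358) and with the T and NK term (247). It became 1 with the myeloid term (1890) and in the compared groups alone (1656), and 3 in DESeq2 (4247) and with no term for extraction (4717). TRIzol libraries and the fit without the stromal libraries leave 1 P7 library and are too small for a count. Leaving out a library gave 1 to 2 (1585 to 6072 of all genes called). For P10 against E18.5 (1051 of all genes called) the count of 1 became 2 in TRIzol libraries (551). It became 3 with the T and NK term (904) and in the compared groups alone (3008). Qiagen libraries leave 1 E18.5 library and are too small for a count. Leaving out a library gave 0 to 1 (624 to 867 of all genes called). For Adult against P10 (3029 of all genes called) the count of 0 became 1 under 7 alternatives, with 1195 to 3380 of all genes called. These were the myeloid term, TRIzol libraries, no term for extraction, a minimum of 5 CPM in 3 libraries, without the stromal libraries, the compared groups alone and DESeq2. Leaving out a library gave 0 to 1. For Adult against E18.5 (5594 of all genes called) the count of 2 became 5 in TRIzol libraries (3231), 4 with the T and NK term and 3 with the acinar term. Qiagen libraries leave 1 E18.5 library here too. Leaving out a library gave 1 to 2. For T2D against T2H (2937 of all genes called) the count of 2 became 3 in TRIzol libraries and in DESeq2, both with Tap2. Qiagen libraries leave 1 T2H library and are too small for a count. The count stayed 2 with the myeloid term, where H2-K1 was lost and B2m called lower. Leaving out a library gave 2 to 3. For age within Adult it became 1 in DESeq2. The causes were not tested; Qiagen and TRIzol subsets have fewer libraries. TRIzol libraries alone gave no value for T1ND comparisons, as T1ND has none. No paired analysis was possible because replicate numbers follow accession order and pair nothing. Nlrc5 was limited by depth, with libraries at 0 in Adult, P10, T2H and T2D.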
